A study of Drosophila melanogaster with 34 samples.

Results

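HP1a was measured by chromatin immunoprecipitation and sequencing (ChIP-seq) on the transposons of ovarian somatic cells (OSC), which are follicle-type cells of Drosophila kept as a line in culture, after knockdown of Piwi. The members were all 129 transposon consensus sequences of the HP1a table, which are all those measured in the series. They were read in 4 of the 34 samples, 1 HP1a ChIP library and 1 input library from each of 2 groups. Piwi-KD cells received siRNA against Piwi, and control cells received siRNA against EGFP, a protein the fly does not make. Both groups were the same line, grown at 26 degrees and transfected by nucleofection, and each immunoprecipitation used 3 µg of antibody. RNA, accessible chromatin (ATAC-seq), H3K9me3 and linker histone H1 were measured in the same 2 knockdowns, Piwi-bound small RNA in control cells, and HP1a also after knockdown of H1 (H1-KD).

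HP1a is the major heterochromatin protein of the fly, and its chromodomain binds histone H3 methylated at lysine 9. In follicle cells, Piwi is guided by piRNAs to nascent transposon transcripts and silences transcription there, and LTR retroelements of the gypsy kind are its best known targets. HP1a also covers pericentromeric repeats, telomeres and silent ribosomal DNA, where it can be held by other means.

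The HP1a libraries held 2599638 reads in Piwi-KD and 2690165 in the control, and the inputs 3842228 in Piwi-KD and 3870079 in the control, as recovered from the deposited values. RPKM scales reads by consensus length and by the read total of the library, and levels are given as the RPKM of ChIP over the RPKM of input of the same knockdown. Levels are thus relative to the rest of each library, and a change of HP1a common to the whole genome would not show. With 1 library a side there was no spread between replicates and no test. The 95% intervals given below reflect counting error alone, and reads amplified by PCR are not independent molecules. Each consensus sums over the copies of its element across the genome, so no chromosome position is given. In bulk chromatin, less HP1a on every copy, HP1a lost from some copies and HP1a lost in some cells cannot be told apart. Transcripts of Piwi and of follicle cell marker genes were not analysed here, so neither the knockdown nor the cell type was checked in these libraries.

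HP1a over input was at least 1.5-fold lower in Piwi-KD on 6 of the 96 transposons kept after a filter on low levels (6.25%). They were GYPSY, DM297, MDG1, STALKER2, Gypsy2 and BLOOD, all LTR elements of the Ty3/gypsy superfamily. It was at least 1.5-fold higher on 2 (2.08%), GYPSY6A and POGON1, both with few reads. The median transposon had a log2 change of 0.05. The median level was 1.87 in Piwi-KD and 1.81 in the control, and HP1a exceeded input on 86 transposons in Piwi-KD and on 87 in the control. Most transposons thus stood near the diagonal in the plot of levels in both knockdowns.

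**Figure D1:**
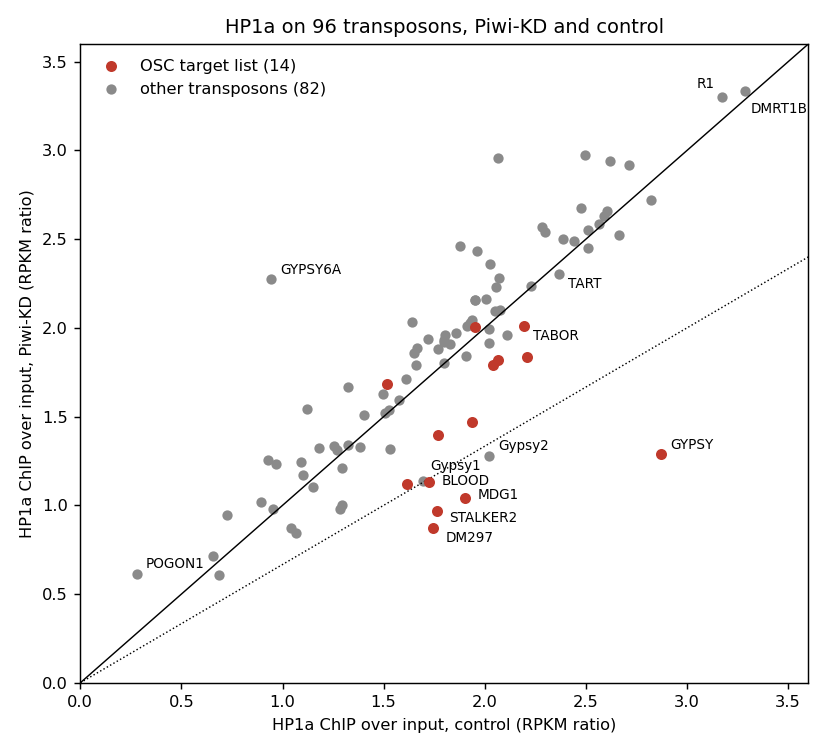
HP1a ChIP over input (RPKM ratio) in Piwi-KD (vertical axis) and in the control (horizontal axis) for 96 transposons, each point 1 transposon and 1 library of each kind a side; the solid line marks equal levels and the dotted line a 1.5-fold lower level in Piwi-KD. GYPSY, at 1.29 in Piwi-KD against 2.87 in the control, stands farthest below the diagonal, and R1 and DMRT1B stay at the upper end of it.

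GYPSY, the env-bearing retroelement that names the group, had 1314 RPKM of HP1a ChIP over 1020.2 RPKM of input in Piwi-KD, against 2839 RPKM over 989 RPKM in the control. Its input was near equal in Piwi-KD and control while its HP1a ChIP was far lower in Piwi-KD. HP1a over input was 1.29 in Piwi-KD against 2.87 in the control, a log2 change of -1.15 with a counting interval of -1.19 to -1.12. It ranked 73 of 96 in Piwi-KD and 3 in the control, so that 1 of the most HP1a-rich transposons of control cells stood among the poorer ones after Piwi knockdown. DM297, a relative of gypsy, had 273 RPKM of HP1a ChIP over 312 RPKM of input in Piwi-KD, against 427 RPKM over 244 RPKM in the control. Its ratio was 0.874 in Piwi-KD against 1.75 in the control (-0.98, interval -1.07 to -0.93). Unlike GYPSY, DM297 also had more input in Piwi-KD than in control sample 1. The ChIP alone differed by -0.63 and the input by 0.35 on the log2 scale. The SD of the DM297 input over the 3 control inputs was 0.17, and with those of samples 2 and 3 the HP1a change was -0.70 or -0.68. The size of the input difference thus depended on the control library. Gypsy2, an entry of the tables separate from GYPSY2, had 68.0 RPKM of HP1a ChIP over 53.1 RPKM of input in Piwi-KD, against 91.6 RPKM over 45.3 RPKM in the control. Its ratio was 1.28 in Piwi-KD against 2.02 in the control (-0.60, interval -0.82 to -0.51). Its ChIP alone differed by -0.39, under 1.5-fold.

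In the mdg1 group, LTR retrotransposons related to gypsy, MDG1 had 199 RPKM of HP1a ChIP over 190.4 RPKM of input in Piwi-KD, against 326 RPKM over 171 RPKM in the control. Its ratio was 1.04 in Piwi-KD against 1.90 in the control (-0.84, interval -0.95 to -0.78), so HP1a stood at the input level in Piwi-KD. STALKER2 had 42.9 RPKM of HP1a ChIP over 44.3 RPKM of input in Piwi-KD, against 76.5 RPKM over 43.4 RPKM in the control. Its ratio was 0.968 in Piwi-KD against 1.76 in the control (-0.76, interval -1.03 to -0.70) on equal input. BLOOD had 295 RPKM of HP1a ChIP over 261 RPKM of input in Piwi-KD, against 438 RPKM over 254 RPKM in the control. Its ratio was 1.13 in Piwi-KD against 1.72 in the control (-0.59, interval -0.67 to -0.54), just past the threshold of 1.5-fold. The ChIP alone of BLOOD differed by -0.56, under 1.5-fold. For these 6 elements HP1a over input lay between 0.874 and 1.29 in Piwi-KD and between 1.72 and 2.87 in the control; the choice of these elements by their change sets these ranges apart.

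The calls closest to the threshold depended on the control input. With the control input of sample 2 or 3 in place of that of sample 1, BLOOD stood at -0.45 or -0.41 and Gypsy2 at -0.59 or -0.52, while GYPSY (-1.32 or -1.25), DM297 (-0.70 or -0.68), MDG1 (-0.71 or -0.62) and STALKER2 (-0.67 or -0.66) stayed at least 1.5-fold lower. Just inside the threshold were BLOOD (-0.59), Gypsy2 (-0.60) and STALKER2 (-0.76), and just outside it Gypsy1 (-0.57), DM412 (-0.52) and QUASIMODO (-0.39). Gypsy1, a Ty3/gypsy LTR entry, had 2171 RPKM of HP1a ChIP over 1905 RPKM of input in Piwi-KD, against 3281 RPKM over 1938 RPKM in the control, the highest RPKM of the 6. Its ratio was 1.14 in Piwi-KD against 1.69 in the control, with an interval of -0.60 to -0.55, and it stood at -0.84 or -0.74 with the other control inputs. Gypsy1 thus showed a lower HP1a level of the same order as BLOOD, and the threshold separates them by little.

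Among members of the OSC target list, 14 kept LTR elements that are well known Piwi targets of follicle cells, HP1a differed widely in how far it was below control. The list rests on what is known of these cells and was taken with earlier results of these data known, so it is not independent evidence of a direction. Of the 14 members, 5 were at least 1.5-fold lower (against 6.25% of all kept), none higher, and 12 were below control by any amount, as were 32.3% of all kept transposons. The counting interval lay wholly below 0 for 12 of the 14, against 18.8% of all. The list's median level was 1.43 in Piwi-KD and 1.92 in the control, and its median log2 change -0.33, beside 0.05 over all kept and 0.07 over the 82 outside the list. The list's median was -0.26 or -0.21 with the other control inputs, where 10 or 11 members were below control. With those inputs 58 or 48 of the 82 outside the list were below control too, and the median over all kept was -0.11 or -0.05.

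**Figure D2:**
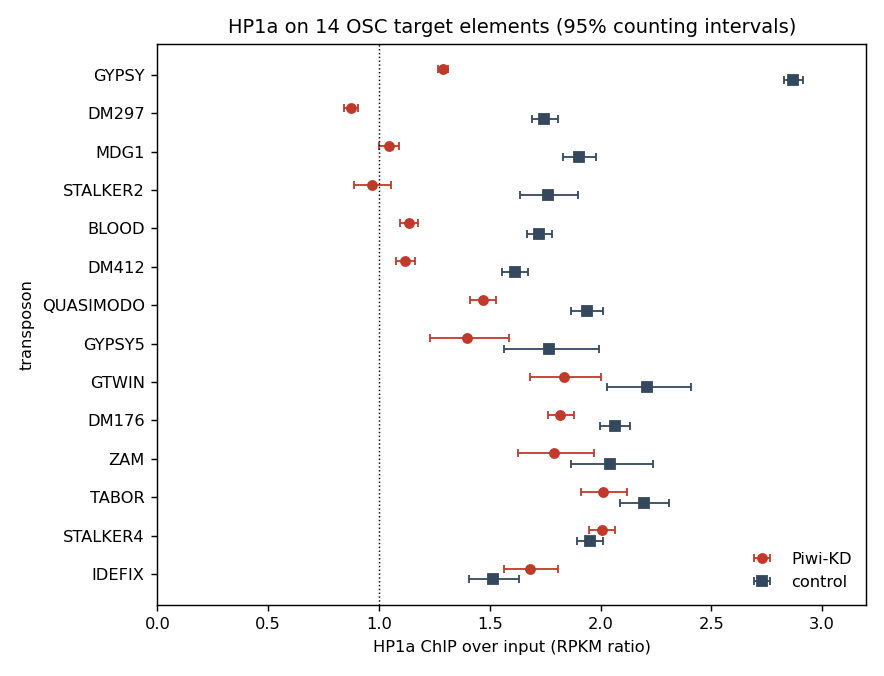
HP1a ChIP over input (RPKM ratio, horizontal axis) on the 14 kept members of the OSC target list (vertical axis), circles for Piwi-KD and squares for the control, 1 library of each kind a side; bars are 95% counting intervals of the ratio and the dotted line marks equal ChIP and input. The 6 uppermost elements lie between 0.874 and 1.29 in Piwi-KD, while STALKER4 and IDEFIX at the bottom lie at or above their control level.

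DM412, an LTR element of the mdg1 group, had 254 RPKM of HP1a ChIP over 227 RPKM of input in Piwi-KD, against 344 RPKM over 213 RPKM in the control. Its ratio was 1.12 in Piwi-KD against 1.61 in the control (-0.52, interval -0.61 to -0.45), and it stood at -0.26 or -0.23 with the other control inputs. QUASIMODO, a gypsy-group element, had 297.1 RPKM of HP1a ChIP over 202 RPKM of input in Piwi-KD, against 343 RPKM over 177 RPKM in the control. Its ratio was 1.47 in Piwi-KD against 1.94 in the control (-0.39), and it stood at -0.17 or -0.13 with the other inputs. Both lay between the list's called elements and the rest of it. GYPSY5 (-0.26), GTWIN (-0.24), DM176 (-0.18), ZAM (-0.16) and TABOR (-0.12) followed, with levels of 1.40 to 2.01 in Piwi-KD and 1.77 to 2.21 in the control.

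TABOR, of the mdg1 group, had one of the highest levels of the list. It had 201 RPKM of HP1a ChIP over 99.9 RPKM of input in Piwi-KD, against 213 RPKM over 97.1 RPKM in the control, a ratio of 2.01 in Piwi-KD against 2.19 in the control. DM176, a relative of DM297, turned sign with the control input, at 0.07 or 0.11 with samples 2 and 3, and TABOR stood at 0.02 or -0.02 with them. STALKER4, of the mdg1 group, stood at 2.01 in Piwi-KD against 1.95 in the control (0.04, interval -0.02 to 0.10), and at 0.36 or 0.41 on the log2 scale with the other control inputs. IDEFIX, a follicle-cell element that the flamenco piRNA locus controls, stood at 1.68 in Piwi-KD against 1.51 in the control (0.14). ZAM, another element under flamenco, stood at 1.79 in Piwi-KD against 2.04 in the control (-0.16). HP1a on these last elements was thus within 1.5-fold of control, with more HP1a than input in both knockdowns.

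By class, the 8 kept members of the mdg1 group had a median log2 change of -0.40, with 3 at least 1.5-fold lower and 6 below control (against 6.25% and 32.3% of all kept), and the median stayed between -0.52 and -0.30 under the settings tried. The gypsy group held the 2 largest differences, GYPSY and DM297, yet its 25 kept members had a median of 0.02. Medians were 0.09 for 12 other Ty3/gypsy elements, 0.11 for 7 of BEL/Pao, 0.02 for 5 of the copia group, 0.06 for 19 non-LTR elements and 0.08 for 14 DNA transposons, and none of these 12, 7, 5, 19 and 14 members was at least 1.5-fold lower. The 4 rDNA and R elements had a median of 0.04 and the 2 telomeric elements 0.03. With the control input of sample 2 the gypsy, other Ty3/gypsy, BEL/Pao, copia, non-LTR, rDNA and telomeric medians took the other sign (-0.08, -0.08, -0.25, -0.17, -0.24, -0.37 and -0.18), so no direction is given for them. The mdg1 median was -0.35 with that input, close to that of the rDNA and R elements. Transposons named for their dominance in the germline had a median of 0.03 over 14 kept members.

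**Figure D3:**
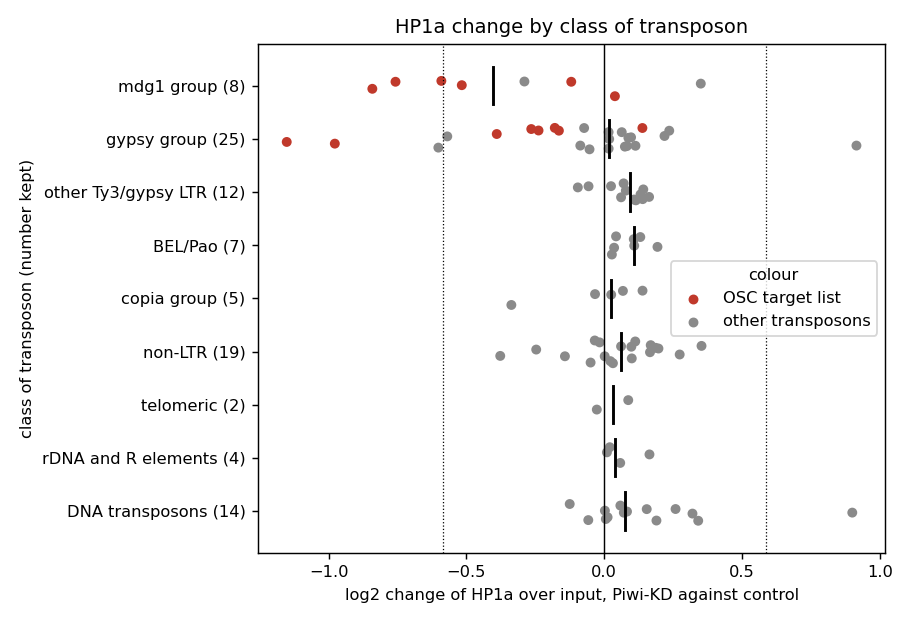
Log2 change of HP1a over input in Piwi-KD against control (horizontal axis) for 96 transposons by class (vertical axis, number kept in brackets), each point 1 transposon, with a bar at the class median and dotted lines at 1.5-fold. The mdg1 group has its median at -0.40, and the points past 1.5-fold lower belong to the mdg1 and gypsy groups.

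Apart from GYPSY, the elements richest in HP1a in the control stood near their control level with the control input of sample 1. R1 and R2, non-LTR elements that insert into ribosomal RNA genes, stood at 3.30 in Piwi-KD against 3.17 in the control (0.06) and at 2.94 in Piwi-KD against 2.62 in the control (0.16). DMRT1B and DMRT1A, relatives of R1, stood at 3.34 in Piwi-KD against 3.29 in the control (0.02) and at 2.58 in Piwi-KD against 2.57 in the control (0.01). DMRT1B and R1 ranked first and second in both knockdowns. With the other control inputs R1 stood at -0.33 or -0.10 and DMRT1B at -0.41 or -0.29, so the sign of these differences was set by the input, within 1.5-fold under each. Of the non-LTR G elements, G stood at 2.92 in Piwi-KD against 2.72 in the control and G6 at 2.72 in Piwi-KD against 2.82 in the control. With the other control inputs G6 stood at -0.47 or -0.39, G at -0.30 or -0.10 and DMRT1A at -0.41 or -0.30. G6 was then about as far below control as BLOOD (-0.45 or -0.41).

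Of the telomeric elements, which maintain fly chromosome ends, TART and HETA passed the filter. TART stood at 2.31 in Piwi-KD against 2.36 in the control (-0.03, interval -0.21 to 0.13) and HETA at 1.32 in Piwi-KD against 1.18 in the control (0.09, interval -0.23 to 0.55). With the control inputs of samples 2 and 3 TART stood at -0.28 or -0.39, outside its counting interval. HETA stood at -0.08 or -0.15 with them, so its sign was set by the input. HP1a on TART lay well above input although its H3K9me3 lay below input, at 0.335 in Piwi-KD and 0.408 in the control. HETA had H3K9me3 of 0.337 in Piwi-KD and 0.345 in the control. TART_B1 and TAHRE were left out by the filter, TART_B1 with 74 HP1a and 73 input reads in Piwi-KD and 132 and 74 in the control, at -0.24 on the log2 scale with the pseudocount and -0.78 without it, with a counting interval below 0.

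The lowest control levels belonged to POGON1, FB4, HOBO and TC1-2, all DNA transposons, and to Jockey, a non-LTR element. HOBO stood at 0.606 in Piwi-KD against 0.684 in the control and FB4 at 0.712 in Piwi-KD against 0.658 in the control, below input in both knockdowns. Jockey stood at 1.02 in Piwi-KD against 0.893 in the control (0.19, interval 0.11 to 0.27). With the control inputs of samples 2 and 3 Jockey stood at -0.04 or 0.07, so no direction is given for it. With the kept transposons split into 4 equal parts from lowest to highest control HP1a, a level that is also the denominator of the change, median changes were 0.08, 0.06, 0.06 and 0.02.

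Both values at least 1.5-fold higher rested on few reads. GYPSY6A, a gypsy-group entry, had 20 HP1a and 13 input reads in Piwi-KD and 19 and 29 in the control, a log2 change of 0.91 with an interval of -0.04 to 2.58. POGON1, a pogo-type DNA element, had 10 HP1a and 24 input reads in Piwi-KD and 7 and 36 in the control (0.90, interval -0.44 to 2.72). Input was lower in Piwi-KD for both, with log2 changes of -0.83 and -0.52, and the ChIP alone differed by 0.08 and 0.38. With the other control inputs GYPSY6A stood at 0.14 or 0.43 and POGON1 at 0.81 or -0.07. The next highest were G7 and STALKER3 (0.35 each), PROTOP_B (0.34), TC1 (0.32), DOC3 (0.27), S (0.26), ACCORD2 (0.24) and GYPSY3 (0.22), all within 1.5-fold. Of these, the counting interval lay above 0 for DOC3, ACCORD2 and GYPSY3, and DOC3 stood at -0.49 or -0.28 with the other control inputs. With those inputs PROTOP_B stood at -0.66 or -0.06, the first at least 1.5-fold lower, G7 at -0.28 or -0.05, STALKER3 at -0.03 or 0.53 and TC1 at -0.01 or 0.00, so no direction is given for these 5.

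**Figure D4:**
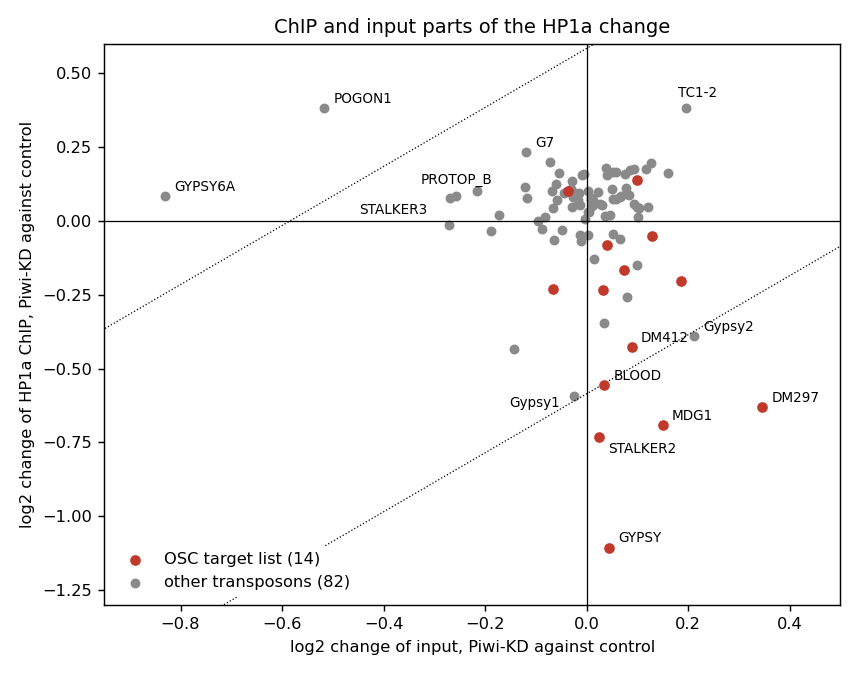
Log2 change of the HP1a ChIP alone (vertical axis) against that of the input alone (horizontal axis), Piwi-KD against control, for 96 transposons; dotted lines mark a 1.5-fold change of ChIP over input. GYPSY, STALKER2 and BLOOD lie below 0 through the ChIP with an input change near 0, while GYPSY6A (input -0.83) and POGON1 (input -0.52) lie to the left through the input.

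The filter left out 33 of the 129 transposons. TIRANT, a member of the OSC target list, and TLD1, TLD3 and Transib-N1 were listed at 0 in all 4 libraries. The other 29 had at most 198 HP1a reads in a library and log2 changes of -0.50 to 0.30, none past 1.5-fold on the scale with the pseudocount, which pulls such low values toward 0. Without it, the counting interval excluded 0 for 2 of them, TART_B1 at -0.78 and GYPSY9 at 2.45 (interval 0.07 to 4.83), the second named after its values were seen.

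The part of the HP1a library that fell on transposons was 15.7% in Piwi-KD and 17.7% in the control, a difference of -1.98 percentage points. GYPSY and Gypsy1 together differed by -1.86 points. GYPSY took 0.918% of HP1a reads in Piwi-KD against 1.98% in the control, and Gypsy1 1.55% in Piwi-KD against 2.34% in the control. Without both, the difference was -0.121 points, a net of falls and rises. The OSC target list, GYPSY included, differed by -1.47 points. Kept transposons outside the list, Gypsy1 left out, differed by 0.286 points. Transposons took 9.63% of the input in Piwi-KD and 9.39% in the control.

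Poly(A)+ RNA and accessibility, 1 column per condition, were set beside HP1a, from libraries that share none with the HP1a comparison. RNA was at least 2-fold higher in Piwi-KD for 23 of the 96 kept transposons (24%). It was so for 5 of the 6 transposons with lower HP1a, which is 83.3% of the 6 and 21.7% of the 23. BLOOD was the exception, with 875 RPKM of RNA in Piwi-KD against 572 RPKM in the control. The 23 had a median HP1a change of -0.24, which was -0.39 for the 11 of the OSC target list and -0.05 for the 12 outside it.

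The sizes of the RNA and HP1a changes ran together only loosely within the target list. TABOR RNA was 523 RPKM in Piwi-KD against 17.8 RPKM in the control, with HP1a at -0.12. GYPSY5 RNA was 94.2 RPKM in Piwi-KD against 0.254 RPKM in the control, with HP1a at -0.26. GTWIN RNA was 76.9 RPKM in Piwi-KD against 0.782 RPKM in the control, with HP1a at -0.24, or -0.51 and -0.46 with the control inputs of samples 2 and 3. STALKER2 had a smaller RNA difference, 288 RPKM in Piwi-KD against 76.0 RPKM in the control, with HP1a at -0.76. This element with a modest RNA difference thus had a larger HP1a difference than the 3 before it. Gypsy1, with HP1a at -0.57, had 2465 RPKM of RNA in Piwi-KD against 2827 RPKM in the control. Outside the list, RNA of DOC, a jockey-type non-LTR element, stood at a log2 change of 2.15 with HP1a at 0.03, and the I element, known from hybrid dysgenesis, at 2.55 with HP1a at -0.38.

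Accessibility was at least 1.5-fold higher in Piwi-KD for 11 transposons (11.5%), of which 4 were among the 6 with lower HP1a, 66.7% of the 6 and 36.4% of the 11. BLOOD and STALKER2 were the others, at log2 changes of 0.17 and 0.49. The ATAC median over all kept transposons was -0.32, and relative to it 14 were at least 1.5-fold higher, STALKER2 among them and BLOOD not. Gypsy2 had 2881 RPKM of ATAC signal in Piwi-KD against 67.0 RPKM in the control, and DM297 12132 RPKM in Piwi-KD against 185 RPKM in the control. Both stood far out on the accessibility axis, with HP1a changes of -0.60 and -0.98.

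**Figure D5:**
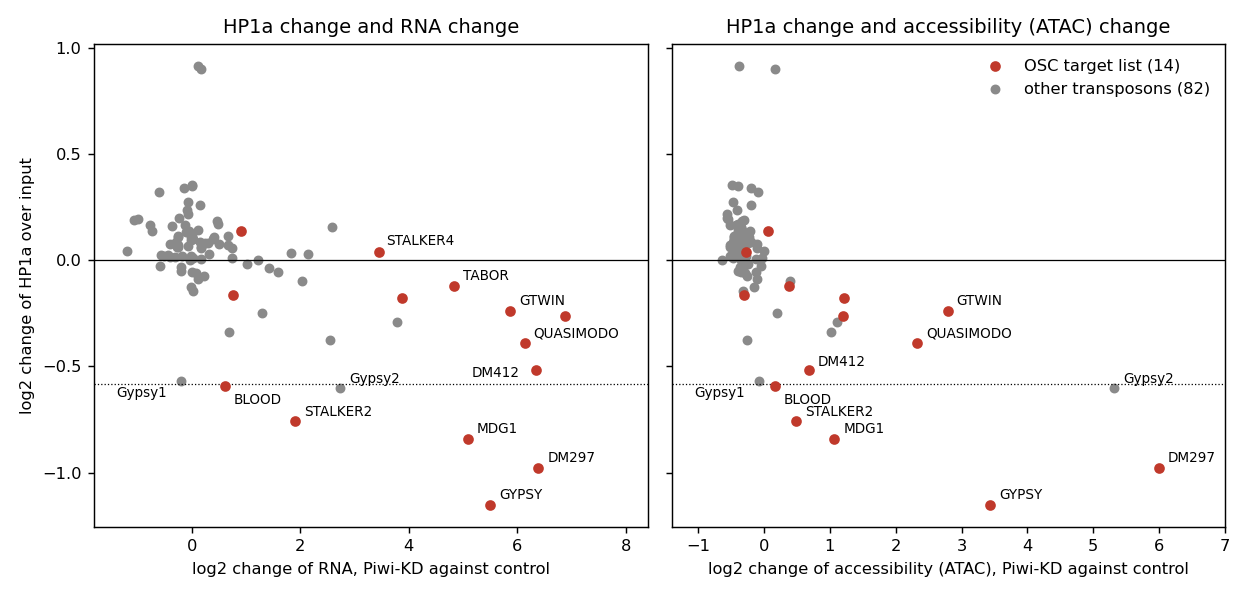
Log2 change of HP1a over input (vertical axis) against the log2 change of RNA (left, horizontal axis) and of accessibility (right, horizontal axis), Piwi-KD against control, for 96 transposons; the dotted line marks 1.5-fold lower HP1a. Transposons of the OSC target list spread from an HP1a change of -1.15 to 0.14 at RNA changes of up to 6.88.

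Across the 96 transposons the HP1a change had a Pearson r of -0.63 and a Spearman rho of -0.50 with the RNA change, and -0.66 and -0.54 with the ATAC change. Over the 82 outside the target list they were -0.38 and -0.30 for RNA and -0.44 and -0.36 for ATAC. Over the 14 of the list they were -0.31 and -0.37 for RNA and -0.61 and -0.62 for ATAC. With the ChIP alone, not divided by input, the rank relation over those 14 was -0.39 with ATAC and -0.20 with RNA. These are descriptions across transposons, which all come from the same few libraries and can share reads between related families. Within the list the relation was closer for accessibility than for RNA in these libraries, a difference that was not tested.

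Piwi-bound small RNA of control cells, per kilobase of consensus, had a Spearman rho of -0.43 with the HP1a change over all kept transposons and -0.14 within the target list. Of the 6 with lower HP1a, 5 were among the 20 of the 96 kept transposons with most small RNA per kilobase. That is 83.3% of the 6 and 25% of the 20, against 6.25% of all kept with lower HP1a. GTWIN and DM412 ranked first and second in small RNA, at 6390.1 and 4299 RPM per kilobase, with HP1a changes of -0.24 and -0.52. STALKER2, outside the 20, had 934 RPM per kilobase.

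H3K9me3, the histone mark HP1a binds, was divided by the same inputs as HP1a, so the values are given side by side with no measure of their agreement. H3K9me3 over input was at least 1.5-fold lower on 13 transposons (13.5%), and at least 1.5-fold higher on 13 (13.5%), with a median over all kept of 0.30. Relative to that median, 15 were lower and 2 higher. GYPSY had H3K9me3 over input of 2.21 in Piwi-KD against 6.75 in the control (-1.60), DM297 1.16 in Piwi-KD against 4.72 in the control (-1.98) and MDG1 1.31 in Piwi-KD against 4.20 in the control (-1.63). On all 3 the H3K9me3 difference was larger on the log2 scale than the HP1a one. H3K9me3 also stood higher over input in the control than HP1a did (2.87, 1.75 and 1.90 for HP1a). The 2 thus started from unlike levels, and the sizes of the 2 differences are not on a common scale. Why the sizes differ was not tested.

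COPIA, the type element of Ty1/copia, had H3K9me3 of 0.858 in Piwi-KD against 2.08 in the control (-1.27) and HP1a of 0.842 in Piwi-KD against 1.07 in the control (-0.34). The I element had -1.11 for H3K9me3 and -0.38 for HP1a, DM412B, an mdg1-group entry with few reads, -1.07 and -0.29, and DOC6, a jockey-type element, -0.95 and -0.25. DOC6 stood at 0.19 or 0.37 for HP1a with the other control inputs. These elements had lower H3K9me3 with HP1a within 1.5-fold of control. QUASIMODO went the other way, with H3K9me3 of 5.95 in Piwi-KD against 3.79 in the control (0.64) and HP1a at -0.39. R1 had H3K9me3 of 7.16 in Piwi-KD against 4.56 in the control (0.65), with HP1a at 0.06. R2 had 6.76 in Piwi-KD against 4.38 in the control (0.62), with HP1a at 0.16. The H3K9me3 median over all kept was 0.30, and H3K9me3 was not recomputed with the other control inputs. With them HP1a on R1 stood at -0.33 or -0.10 and on R2 at -0.08 or -0.02.

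Linker histone H1, also divided by the same inputs, was at least 1.5-fold lower in Piwi-KD on 3 transposons (3.12%), DM297 (-0.85), GYPSY (-0.82) and MDG1 (-0.76). The H1 values were not recomputed with the other control inputs. For HP1a those inputs moved DM297 from -0.98 to -0.70 or -0.68 and MDG1 from -0.84 to -0.71 or -0.62. They moved GYPSY the other way, from -1.15 to -1.32 or -1.25. STALKER2 stood at -0.45, Gypsy2 at -0.41 and BLOOD at -0.11 for H1.

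HP1a after H1 knockdown was read against the same control libraries, and was at least 1.5-fold lower on 2 transposons (2.08%), BLOOD (-0.68) and STALKER2 (-0.62). The H1-KD values were not recomputed with the control inputs of samples 2 and 3. In the Piwi-KD comparison those inputs moved BLOOD from -0.59 to -0.45 or -0.41. They moved STALKER2 from -0.76 to -0.67 or -0.66, so both H1-KD calls lie within reach of the input. GYPSY had HP1a over input of 1.29 in Piwi-KD and 3.37 in H1-KD, against 2.87 in the control, and DM297 0.874 in Piwi-KD and 1.91 in H1-KD, against 1.75 in the control. These 2 elements were near or above the control level after H1 knockdown. MDG1 had 1.04 in Piwi-KD and 1.46 in H1-KD, against 1.90 in the control. BLOOD had 1.13 in Piwi-KD and 1.07 in H1-KD, against 1.72 in the control. GTWIN had 1.83 in Piwi-KD and 3.44 in H1-KD, against 2.21 in the control. The difference between the 2 knockdowns was not tested.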

How the data were processed

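The tables give 1 value for each transposon consensus in a column. The authors deposited ChIP, input, RNA and ATAC values as RPKM and small RNA values as RPM, both deduced from the values: whole-number lengths and read totals gave whole reads, within 0.05, for 3606 of 3606 nonzero values in 29 columns. Lengths were found for 128 of 129 transposons. Per the submitters' processing notes, tools included cutadapt and Bowtie 1.0.1, on build dm3. The definition of the totals and the handling of reads that match more than 1 family are not given in the sources used here. Values of close families are therefore uncertain. ATAC has 1 column per condition, and pooling of the 2 replicates in the labels was not stated.

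HP1a change was the log2 ratio of ChIP over input in Piwi-KD to that in the control. A pseudocount of 0.1 of the table's median nonzero value was added (8.07 RPKM for HP1a, 4.53 for input), which understates changes of low transposons. The 25% of transposons with the lowest mean over the HP1a columns were left out. Kept transposons had at least 7 reads and a median of 2104 control HP1a reads. Changes were counted at 1.5-fold, or 2-fold for RNA. Intervals at 95%, Clopper-Pearson for ratios and normal on the log scale for changes, came from the reads without pseudocount. The procedure was tested on simulated data for this comparison: all 20 transposons changed 2-fold passed the threshold, 0 of 76 without a change did, and 93.8% of intervals covered the change put in. The simulated reads carried counting error alone, so this checks the computation and says nothing of differences between libraries or inputs. Changes below 2-fold were not simulated, and 1 of the 6 real calls reached 2-fold. Python 3.11.15 with numpy 2.4.6, pandas 2.3.3 and scipy 1.17.1 was used.

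Samples were grouped by the titles in the labels. Members and lists were chosen with earlier results of these data known. Transposons named are the OSC target list, the 10 lowest and 10 highest changes, the 5 highest and 5 lowest control levels, the 3 nearest the threshold on each side, those at least 2-fold higher in RNA or 1.5-fold lower in H3K9me3, and the ribosomal and telomeric elements. No transposon sequences were used here.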

Additional observations from a re-analysis of the deposited data

How the results depend on the processing

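No paired analysis was possible because each group has 1 library of each kind. With a pseudocount of 0.5 of the median, 3 transposons were at least 1.5-fold lower (GYPSY, DM297 and MDG1), and 1 (GYPSY) was at least 2-fold lower. The count of higher transposons was 0 without division by input, with that pseudocount, with the lowest 50% left out, with the control input of sample 3 or at 2-fold, and 1 with the control input of sample 2. Over the OSC target list the median change was -0.21 with the control input of sample 3, and POGON1 turned to -0.0677 there. Without input 5 transposons were lower, 4 of the 6 of the report and Gypsy1, and BLOOD and Gypsy2 dropped out. The counts of lower transposons were 6 without a filter, 6 without a pseudocount, 7 after centring on the median transposon, 5 with the lowest 50% left out, 9 at 1.3-fold and 9 or 6 with the control inputs of samples 2 or 3. The last 2 shared 5 and 4 transposons with the 6 of the report and added Gypsy1 and BAGGINS1, and that of sample 2 also G5 and PROTOP_B (BAGGINS1 and G5 are named because they appeared there). Of 50 named transposons, 32 and 26 lay outside their counting interval with those inputs, 13 without input, 7 after centring and 4 with the larger pseudocount. Over 3 control inputs the SD on the log2 scale had a median of 0.13 and reached 0.53 (POGON1). Those inputs come from other sample numbers. The spread between HP1a ChIP libraries was not measured. Read depth limits POGON1 and GYPSY6A, not GYPSY or DM297.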

Other observations

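HP1a was also set directly over H3K9me3 of the same knockdown, a ratio of 2 ChIP libraries that needs no input and was computed after the data had been seen. The median log2 change of this ratio over the kept transposons was -0.22 and the values given here are not centred on it. On DM297, COPIA and MDG1 H3K9me3 stood higher over input than HP1a in the control. The 2 parts of this ratio thus started from unlike levels over input, and why the ratio changed was not tested. DM297 had 0.751 units of HP1a RPKM per RPKM of H3K9me3 in Piwi-KD against 0.370 in the control (1.0 on the log2 scale), COPIA 0.981 in Piwi-KD against 0.511 in the control (0.93) and MDG1 0.795 in Piwi-KD against 0.454 in the control (0.78). QUASIMODO stood at the other end, with 0.247 in Piwi-KD against 0.512 in the control (-1.03, counting interval -1.12 to -0.99), although it belongs to the same group as DM297 and their RNA changes were 6.13 and 6.38. TART had the most HP1a for its H3K9me3 among the elements named here, 6.89 in Piwi-KD and 5.79 in the control, followed by HETA with 3.92 in Piwi-KD and 3.43 in the control.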
